A study of Mus musculus with 9 samples.

Results

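Regulatory T cells (Tregs) whose Sirt1 gene was targeted with a Cre recombinase under Foxp3 were compared with wild type Tregs across all genes on the array. The comparison takes 6 of the 9 expression arrays of the series, chosen by their labels: the 3 arrays labelled as conditional Sirt1 knockout with Foxp3 cre (Foxp3-cre below) and the 3 wild type arrays. All samples are total RNA of CD4+CD25+ Tregs that were separated with magnets from mice labelled C57BL6, and each was hybridised to 1 Affymetrix mouse array. The other 3 arrays are a conditional Sirt1 knockout with CD4 cre (CD4-cre), which acts in T cells at large. They enter here for the estimate of the spread and for the test of whether a change differs between the knockouts. The Cre of the compared knockout acts where Foxp3 is expressed, so other cells that came through the separation would keep Sirt1. The labels give neither age, sex or substrain of the mice nor the part of Sirt1 that is removed. Samples are described as independent, with no animal named, so p-values cover the variation among these samples, and part of it may be technical. Signals are log2 values, and a difference of 1 is a 2-fold change.

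Tregs hold back other immune cells, and most of them depend on the transcription factor FOXP3, which acts in part by recruiting enzymes that add or remove acetyl groups on proteins. SIRT1 is an NAD-dependent deacetylase, and FOXP3 is among the proteins it is known to deacetylate. Conventional helper T cells differ from Tregs in the cytokines they release, such as interferon gamma and interleukin 4, under lineage factors such as T-bet. CD4 and CD25 are also found on activated conventional T cells, and magnetic separation can carry over myeloid and B cells, so genes of T cells are described apart from genes of those cells.

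Among the 9 arrays, wild type replicate 2 differed most from the rest. Its Pearson correlation with them over all probe sets was 0.982 to 0.987, against 0.992 or more among the others. The signal at the 5' end of the beta-actin transcript minus that at the 3' end was -1.53 here, and the same difference for Gapdh was -1.10. The other arrays had -0.68 to -0.45 and -0.36 to -0.05. The median SD of a gene was 0.181 in wild type and 0.0874 in Foxp3-cre, and the median standard error (SE) of the comparison went from 0.110 to 0.0836 without that array. Counts are therefore given with and without it.

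Sirt1, the targeted gene, read 7.91, 6.77 and 7.90 on the wild type arrays and 7.66, 7.54 and 7.47 on the Foxp3-cre arrays. Wild type replicate 2 is the lowest of the 6 values and the groups overlap. The difference was 0.03 (SE 0.26, limma adjusted p = 0.958), and it was -0.35 (SE 0.07, adjusted p = 0.0301) without wild type replicate 2. The call for the targeted gene thus depends on 1 array. The labels do not say whether its probe set lies in the deleted part, so the signal may check nothing. Foxp3 read 9.16, 9.68 and 9.34 in wild type, 9.68, 9.69 and 9.62 under CD4-cre, and 2.67, 3.38 and 2.83 under Foxp3-cre. The Foxp3-cre signals lie at or above only 11.3%, 23.8% and 14.4% of the probe sets of their arrays. The difference of these signals was -6.44 (SE 0.18, limma adjusted p = 2.16e-07), and since its Foxp3-cre side is at low signal no fold follows from it. Foxp3 is represented by 1 probe set, and the labels do not say where in the transcript it lies. T cell identity was checked with markers: Cd3d, Cd3e and Cd3g, the chains of CD3, stood at -0.11, -0.11 and -0.03 against wild type, and Il2ra, which encodes CD25, stood at 0.12 (adjusted p = 0.470).

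The sequences below are promoter windows of 4 genes on which 2 of the results turn: Asns, which had the largest rise of any gene, and Ttk, Kif11 and Ube2c, which are the changed mitosis genes with the largest rises whose windows hold both cell cycle motifs searched for, and were chosen after their values were seen. Each runs from 250 bases before to 20 bases after the RefSeq start in GRCm38.p6, 5' to 3' on the strand of the gene, and capitals mark motif matches: TGATGNAAN, the C/EBP-ATF response element of amino acid stress genes, in Asns, and TTTGAA or TTCGAA (the cell cycle homology region) and CCAAT (the NF-Y box) in the others. A match on the opposite strand shows as its complement, TTCAAA or ATTGG. Asns is at chr6:7693190-7693459 (minus strand), Ttk at chr9:83834439-83834708, Kif11 at chr19:37376132-37376401 and Ube2c at chr2:164769679-164769948 (plus strand).
Asns: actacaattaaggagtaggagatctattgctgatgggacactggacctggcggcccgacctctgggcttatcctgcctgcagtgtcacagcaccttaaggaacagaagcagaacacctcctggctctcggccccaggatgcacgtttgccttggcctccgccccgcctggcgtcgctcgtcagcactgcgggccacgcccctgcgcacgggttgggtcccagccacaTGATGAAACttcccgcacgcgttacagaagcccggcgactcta
Ttk: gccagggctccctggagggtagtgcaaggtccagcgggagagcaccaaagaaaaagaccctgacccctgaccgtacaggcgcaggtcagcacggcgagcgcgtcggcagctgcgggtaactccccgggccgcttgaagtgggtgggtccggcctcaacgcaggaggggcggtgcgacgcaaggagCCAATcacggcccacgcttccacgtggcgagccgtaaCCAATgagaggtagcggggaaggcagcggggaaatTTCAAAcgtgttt
Kif11: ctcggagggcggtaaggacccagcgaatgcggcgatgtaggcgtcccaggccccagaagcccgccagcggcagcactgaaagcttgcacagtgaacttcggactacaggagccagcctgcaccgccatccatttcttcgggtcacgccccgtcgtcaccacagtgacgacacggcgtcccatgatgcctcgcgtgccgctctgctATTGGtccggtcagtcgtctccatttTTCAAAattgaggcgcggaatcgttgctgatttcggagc
Ube2c: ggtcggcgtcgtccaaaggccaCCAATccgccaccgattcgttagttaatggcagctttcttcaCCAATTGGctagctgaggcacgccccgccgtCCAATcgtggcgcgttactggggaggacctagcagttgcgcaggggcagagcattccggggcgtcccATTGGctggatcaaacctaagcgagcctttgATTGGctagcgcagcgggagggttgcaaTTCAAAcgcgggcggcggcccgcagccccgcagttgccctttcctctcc

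Of 7436 genes tested, 250 changed between Foxp3-cre and wild type (limma adjusted p below 0.05), which is 3.36% of them, with 126 up (1.69%) and 124 down (1.67%). A gene was tested where its mean signal reached the 40th percentile of all genes. For all 250 the 3 Foxp3-cre arrays lay beyond the 3 wild type arrays, as they did for 1739 genes or 23.4% of those tested. Differences over 2-fold were seen for 42 of the risen and 19 of the fallen genes. When wild type replicate 2 was left out, 567 genes changed (7.63%), 200 up (2.69%) and 367 down (4.94%). Of the 250 genes, 236 (94.4%) were called again without that array, in the same direction, and they are 41.6% of the 567. The other 331 calls made without it, 84 up and 247 down, lean to falls. The 14 that were called only with it include Ltf and Ifitm6, products of neutrophils, the mitotic genes Ccna2, Cenpf, Birc5 and Ckap2, and Prf1, the pore protein of killer cells.

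The count rests on single arrays in both directions. It was 437 when wild type replicate 1 was left out and 79 when replicate 3 was. Leaving out CD4-cre replicates 1, 2 or 3 gave 91, 100 or 134, and leaving out Foxp3-cre replicates 1, 2 or 3 gave 213, 162 or 71. Of the 250 genes, 48 were called in all 9 of these fits. The labels name no pairs. Same-numbered wild type and Foxp3-cre arrays were taken as pairs because their deviations correlate in these same data. For wild type and CD4-cre arrays, which the block also covers, the correlations were 0.12, -0.01 and 0.23. Calls with the block therefore rest on a pairing drawn from the values. With the replicate number as a block, risen genes came to 215 and fallen genes to 139, and 234 of the 250 genes were called again. When the arrays were shifted to the same median, 121 genes rose and 182 fell, so 39.9% of the calls were rises against 50.4% as deposited. The shift moves the median difference of all genes from 0.006 to -0.032.

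**Figure D1:**
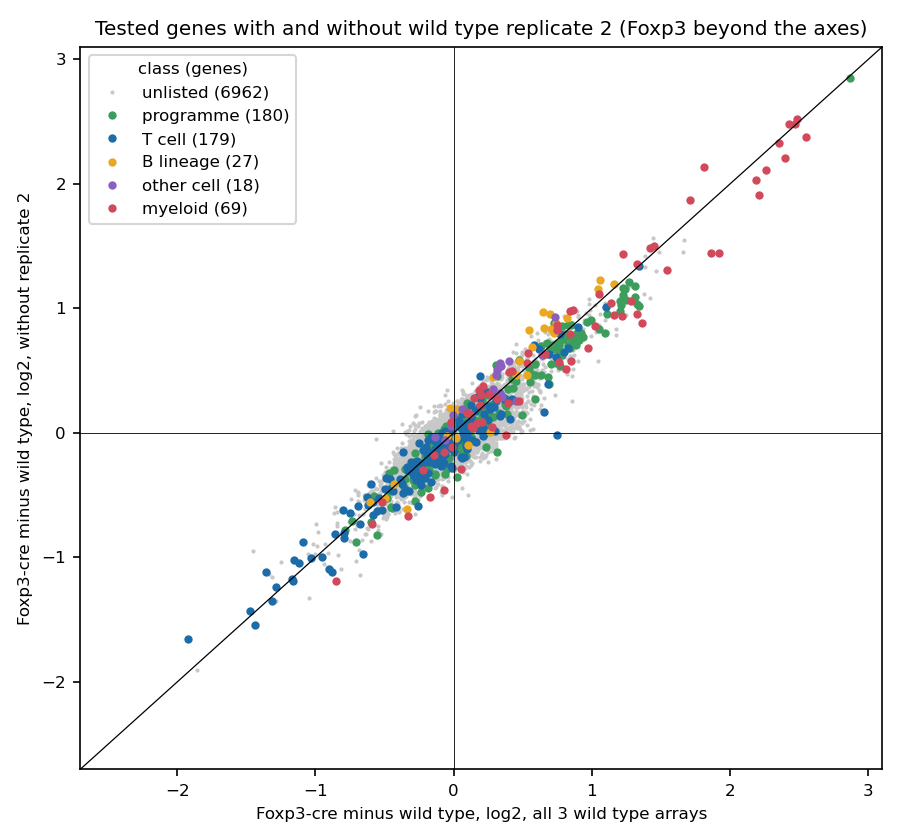
Log2 difference between Foxp3-cre and wild type for each tested gene, with all 3 wild type arrays on the horizontal axis and without replicate 2 on the vertical axis, coloured by gene class. Myeloid genes reach 2.55 on the horizontal axis and T cell genes lie mostly below 0, and both keep close to the diagonal when the array is left out.

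By the gene lists used here, the changed genes split into T cell genes that mostly fell and myeloid genes that rose. Of all tested genes 1.69% rose and 1.67% fell. Of 180 tested T cell genes 8 rose (4.44%) and 27 fell (15%), with a median difference of -0.10, against 0.006 over all genes. Of 69 tested myeloid genes 14 rose (20.3%) and 0 fell, with a median of 0.75. Of 27 B lineage genes 0 changed (3.36% of all genes did), with a median of 0.47 and 21 of them higher (51.1% of all genes were). Genes of processes that any cell can run, called programme genes here, had 26 rises (14.4%) and 7 falls (3.89%) among 180, and most of the rises are mitosis and replication genes. The remaining 168 changed genes are in no list, 78 up and 90 down among 6962. In the fit that omits wild type replicate 2 the T cell counts were 10 up and 41 down, the myeloid counts 13 up and 0 down, the B lineage counts 0 and 0, and the programme counts 23 up and 18 down. Of all tested genes 2.69% rose and 4.94% fell in that fit. The contrast between T cell and myeloid genes is thus present with and without that array. With only the wild type and Foxp3-cre arrays in the fit 16 genes were called, and the 2 rises were Asns and Cap1. No myeloid or mitosis gene was among them, and the T cell genes were Foxp3, Il4, Ifng, Fasl, Xcl1, Tbx21, Cxcr6 and Ccr9. The myeloid and mitosis calls thus need the CD4-cre arrays in the estimate of the spread.

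In a bulk sample fewer cells of a type and less RNA per cell cannot be told apart. This holds for each list below, and the part of a change in cell makeup was not tested. T cell counts moved with single arrays too: 17 T cell genes fell without wild type replicate 3, 16 and 17 without CD4-cre replicates 1 and 2, and 17 without Foxp3-cre replicate 2, and 2 rose without Foxp3-cre replicate 3. Of the 35 changed T cell genes 17 were called in all 9 fits that leave out 1 array, against 2 of 14 myeloid genes and 2 of 33 programme genes.

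**Figure D2:**
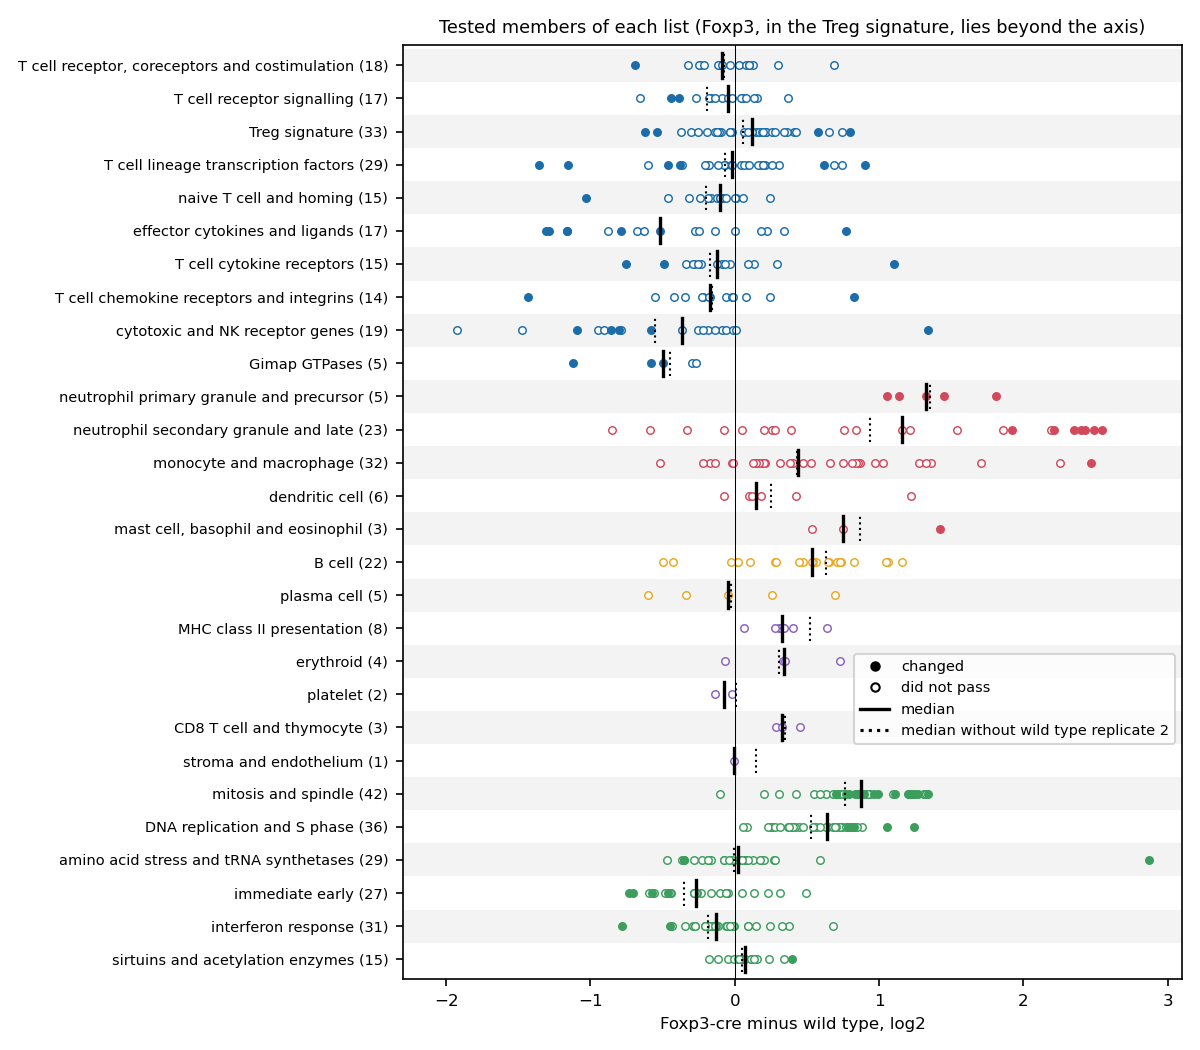
Log2 difference between Foxp3-cre and wild type for the tested members of each list (number in brackets), coloured by class; filled points changed, open points did not pass. Bars mark the median with all arrays (solid) and without wild type replicate 2 (dotted): 1.33 and 1.16 for the neutrophil lists, -0.52 for effector cytokines and ligands, and 0.88 for mitosis.

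Cytokines and ligands of effector T cells were the T cell group with the most falls. Of 25 listed genes 23 are in the table and 17 were tested, of which 6 fell and 1 rose (1.67% and 1.69% of all genes did), with a median of -0.52. Without wild type replicate 2, 10 fell (4.94% of all genes did). Il4, the cytokine of type 2 helper cells, read 6.55, 6.56 and 6.26 in wild type and 5.06, 5.30 and 5.15 in Foxp3-cre. The highest Foxp3-cre array lies far below the lowest wild type array. Il4 fell by 1.29 (SE 0.10, limma adjusted p = 0.00051) and by 1.24 without wild type replicate 2. Ifng, interferon gamma, read 8.65, 8.54 and 8.49 against 7.51, 7.27 and 7.40, and fell by 1.17 (SE 0.09, adjusted p = 0.00051). Every Foxp3-cre array is below every wild type array by more than the spread within either group. Fasl, the death ligand of killer and helper cells, read 7.56, 7.34 and 7.36 against 5.76, 6.18 and 6.39 and fell by 1.31 (SE 0.16, adjusted p = 0.00631), while another probe set stood at -0.63. Xcl1, a chemokine that draws cross-presenting dendritic cells, read 8.31, 8.03 and 7.93 against 6.91, 6.87 and 7.01 and fell by 1.16 (SE 0.10, adjusted p = 0.00106). All 4 of these genes were called in each of the 9 fits that leave out 1 array, and again when only the wild type and Foxp3-cre arrays were fitted.

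Tnfsf14, the ligand LIGHT, fell by 0.79 (SE 0.12, adjusted p = 0.0141) and was also called in all 9 fits. Csf2, which encodes GM-CSF, fell by 0.52 (SE 0.11, adjusted p = 0.0450) at signals of 4.54 to 5.37, close to the threshold for testing. Ccl1, a chemokine ligand of CCR8, was the member that rose: it read 5.78, 5.55 and 5.19 in wild type and 6.36, 6.22 and 6.26 in Foxp3-cre, a rise of 0.77 (SE 0.14, adjusted p = 0.0242). With all arrays the inflammatory chemokines Ccl3 and Ccl4 stood at -0.88 and -0.68 (adjusted p = 0.0752 and 0.0532), the cytokine Tnf at -0.24 (adjusted p = 0.186) and Ltb, lymphotoxin beta, at -0.28 (adjusted p = 0.0622). All 4 passed without wild type replicate 2. Ccl3 and Ccl4 also passed with the replicate number as a block (adjusted p = 0.0248 and 0.0288). Against the same wild type arrays CD4-cre had -0.91 for Il4, -0.80 for Ifng, -0.79 for Fasl and -0.78 for Xcl1. Those 2 comparisons share their controls, and no cytokine differed between the knockouts (adjusted p = 0.232 to 0.269 for these 4 genes).

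The lineage transcription factors of T cells did not move as a block. Of 33 listed genes 29 were tested, 2 rose and 4 fell (1.69% and 1.67% of all genes did), with a median of -0.02. Tbx21, which encodes T-bet, the factor of interferon gamma producing cells, read 8.66, 9.02 and 8.56 in wild type and 7.69, 7.56 and 7.52 in Foxp3-cre. The lowest wild type array is well above the highest Foxp3-cre array, and Tbx21 fell by 1.16 (SE 0.14, limma adjusted p = 0.00643). Zbtb16, which encodes PLZF, the factor of NKT and other innate-like T cells, read 5.58, 6.31 and 5.57 against 4.03, 4.67 and 4.68. Wild type replicate 2 is the high value, and the fall of 1.36 (SE 0.23, adjusted p = 0.0191) was 1.11 without it. The Foxp3-cre signals of Zbtb16 all lie under 4.979, the mean a gene needed to be tested, so it was tested through its other arrays. Another probe set of Zbtb16, under that threshold, stood at -0.37. Zbtb7b, which encodes ThPOK, the factor of CD4 commitment, fell by 0.38 (adjusted p = 0.0387, and 0.0539 with the replicate block), and Foxo1, a regulator of naive and regulatory T cell homing, by 0.46 (adjusted p = 0.0448). Ahr, the aryl hydrocarbon receptor, read 7.23, 7.10 and 7.28 against 8.34, 8.03 and 7.95 and rose by 0.90 (SE 0.14, adjusted p = 0.0148). CD4-cre had 7.05, 7.06 and 7.48, on both sides of wild type. Myb, a factor of precursor and central memory cells, rose by 0.62 (SE 0.09, adjusted p = 0.0147), and its other probe sets stood at 0.96 and 0.82. Tbx21, Zbtb16 and Ahr were called in all 9 fits that leave out 1 array, Myb in 8, and Foxo1 in 2. Gata3, the factor of type 2 helper cells, stood at -0.07 (adjusted p = 0.758) and Eomes, a relative of T-bet, at -0.19 (adjusted p = 0.561).

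The Treg signature held a few changes, in both directions. Of 37 listed genes 33 were tested, 2 rose and 3 fell (1.69% and 1.67% of all genes did), and the median was 0.12. Penk, which encodes a precursor of opioid peptides, read 8.65, 8.07 and 8.41 in wild type and 9.26, 9.05 and 9.21 in Foxp3-cre, and rose by 0.80 (SE 0.14, limma adjusted p = 0.0212). Ebi3, a subunit of interleukins 27 and 35, rose by 0.58 (SE 0.11, adjusted p = 0.0290). Besides Foxp3, Traf1, a signalling adaptor of TNF receptors, fell by 0.62 (SE 0.08, adjusted p = 0.00832) and Tnfrsf9, the costimulatory receptor 4-1BB, by 0.54 (SE 0.08, adjusted p = 0.0107), though another probe set of Tnfrsf9 stood at -0.23. Traf1 and Tnfrsf9 were called in all 9 fits that leave out 1 array, Penk in 7 and Ebi3 in 2. Itgae, the integrin CD103 of tissue Tregs, lay above wild type on every Foxp3-cre array at 0.74 (adjusted p = 0.0518) without passing, and passed with the replicate block (adjusted p = 0.0432). Ctla4, an inhibitory receptor, stood at 0.15 (adjusted p = 0.496), Tnfrsf18, which encodes GITR, at -0.03 (adjusted p = 0.863) and Ikzf2, the factor Helios, at 0.41 (adjusted p = 0.332). For Ikzf2 the wild type arrays read 5.10, 4.17 and 5.04, replicate 2 being the low one, and the difference without it was 0.11. Without wild type replicate 2, Tnfrsf4, the receptor OX40, rose by 0.34 (adjusted p = 0.0426), and Fgl2, a secreted suppressor protein, fell by 0.59 (adjusted p = 0.0398).

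The genes on both sides of Foxp3 on the X chromosome, found in the RefSeq gene order after the values were seen, were also lower. Ccdc22, a subunit of an endosomal sorting complex, read 7.03, 8.66 and 7.26 in wild type, 6.78, 6.92 and 6.92 under CD4-cre and 6.11, 6.32 and 6.15 under Foxp3-cre. Foxp3-cre lies below the other groups on every array, and wild type replicate 2 is far above the rest. With all arrays the difference was -1.45 (SE 0.34, limma adjusted p = 0.0531, and 0.0288 with the replicate block), and without wild type replicate 2 Ccdc22 fell by 0.95 (SE 0.09, adjusted p = 0.00262). Ppp1r3f, a subunit of protein phosphatase 1 on the other side, read 7.17, 7.60 and 7.34 in wild type and 6.99, 6.93 and 6.91 in Foxp3-cre, a difference of -0.43 (adjusted p = 0.0584), and fell by 0.31 without that array (adjusted p = 0.0338). Both, without wild type replicate 2, were also lower than in CD4-cre, by -0.68 for Ccdc22 (adjusted p = 0.0211) and -0.34 for Ppp1r3f (adjusted p = 0.0491), whereas with all arrays neither passed (adjusted p = 0.491 and 0.269). The next tested genes, Syp, a synaptic vesicle protein, and Clcn5, a chloride transporter, stood at 0.14 and -0.25 (adjusted p = 0.469 and 0.450).

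Receptors of cytokines and chemokines held both directions. Of 15 tested cytokine receptors 1 rose and 2 fell, and of 14 chemokine receptors and integrins 1 rose and 1 fell (1.69% of all genes rose and 1.67% fell). Cxcr6, a homing receptor of effector cells for liver and lung, read 9.70, 9.18 and 9.32 in wild type, 8.85, 8.67 and 8.56 under CD4-cre and 7.87, 7.97 and 8.05 under Foxp3-cre. The 3 groups do not overlap. Cxcr6 fell by 1.44 (SE 0.14, limma adjusted p = 0.00158), a 2.71-fold lower signal, and another probe set stood at -1.22. Itgb1, the beta chain of many integrins, read 7.88, 7.41 and 7.78 in wild type, 7.76, 7.61 and 7.74 under CD4-cre and 8.57, 8.46 and 8.51 under Foxp3-cre. CD4-cre sits within the wild type range and Foxp3-cre above it. Itgb1 rose by 0.83 (SE 0.12, adjusted p = 0.0127). Il1r2, the decoy receptor of interleukin 1, read 6.13, 6.01 and 6.43 in wild type, 6.06, 6.25 and 6.03 under CD4-cre and 7.58, 6.94 and 7.36 under Foxp3-cre, and rose by 1.10 (SE 0.17, adjusted p = 0.0141). Il6st, the shared chain gp130 of the interleukin 6 family, stood at -0.75 and passed (adjusted p = 0.0281), but another probe set above the threshold stood at -0.002. Il17rb, the receptor of interleukin 25, fell by 0.49 (adjusted p = 0.0462). Cxcr6 and Itgb1 were called in all 9 fits that leave out 1 array, Il1r2 in 8, Il6st in 3 and Il17rb in 2.

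Whether these changes differ between the knockouts was tested directly. With all 9 arrays 1 gene differed between Foxp3-cre and CD4-cre, Foxp3 itself (0.0134% of the genes tested), with 840 genes at an unadjusted p under 0.05. Itgb1, Il1r2 and Ahr stood 0.81, 1.18 and 0.91 above CD4-cre, with a limma adjusted p of 0.0805 for each. Without wild type replicate 2, which is in neither group but widens the shared spread, 72 genes differed, 25 up and 47 down. Those 72 hold Itgb1 (adjusted p = 0.00467), Il1r2 (0.0274), Ahr (0.0387) and Cxcr6 (0.0387), the last lower in Foxp3-cre by -0.73. The lean to falls depends on the fit: with the replicate number as a block 80 genes were higher in Foxp3-cre and 16 lower. Of those 80, 29 are myeloid genes, a class that has 69 of the 7436 tested genes. The block is no pairing of the knockouts, since deviations of their same-numbered arrays correlate at 0.19, -0.03 and 0.49.

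The antigen receptor and its coreceptors stayed near wild type in the median. Of 18 tested genes 1 fell (1.67% of all genes did), with a median of -0.09, and 3 fell without wild type replicate 2 (4.94% of all genes did). The same shares apply to the receptor signalling and naive lists below, which had 3 and 4 falls without that array. Cd7, a surface protein of T and NK cells, read 8.81, 9.03 and 8.63 in wild type and 7.92, 8.16 and 8.32 in Foxp3-cre, and fell by 0.69 (SE 0.13, limma adjusted p = 0.0265). Cd4 stood at -0.09 (adjusted p = 0.630), Cd5, a brake on receptor signalling, at 0.03 and Thy1 at -0.33 (adjusted p = 0.0600). Of 17 tested genes of receptor signalling 2 fell: Prkcq, the kinase PKC theta, by 0.44 (SE 0.07, adjusted p = 0.0159), and Sit1, an inhibitory adaptor, by 0.39 (SE 0.08, adjusted p = 0.0425). Prkcq read 10.37, 10.34 and 10.44 in wild type, 10.15 on each CD4-cre array and 9.96, 9.99 and 9.88 in Foxp3-cre, so the 3 groups are in that order without overlap. Txk, a TEC family kinase, read 7.73, 6.73 and 7.66 in wild type and 6.89, 6.61 and 6.65 in Foxp3-cre. It stood at -0.65 with all arrays (adjusted p = 0.144) and fell by 0.97 without wild type replicate 2 (adjusted p = 0.00202). Of 15 naive and homing genes 1 fell: Ccr9, the receptor of gut homing, by 1.03 (SE 0.11, adjusted p = 0.00328), and Satb1, Lef1 and S1pr1 joined it without that array, with falls of 0.47, 0.39 and 0.38. Ccr9 was called in all 9 fits that leave out 1 array, Prkcq in 7, Cd7 in 5 and Sit1 in 2.

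Genes of cytotoxic and NK cells lay lower, 17 of 19 tested (48.9% of all genes lay lower), with a median of -0.37, and 4 fell while 1 rose (1.67% and 1.69% of all genes did). Activated T cells express many of them as well. Cd160, a receptor of NK and memory T cells, read 8.59, 9.14 and 8.40 in wild type and 7.47, 7.72 and 7.66 in Foxp3-cre, and fell by 1.09 (SE 0.17, limma adjusted p = 0.0148). The other probe sets of Cd160 stood at -1.02 and -0.78. Ctsw, a cathepsin of killer cells, fell by 0.80 (adjusted p = 0.0258), Nkg7, a granule membrane protein, by 0.58 (adjusted p = 0.0235), and Prf1 by 0.86 (adjusted p = 0.0432), which was -0.81 without wild type replicate 2 (adjusted p = 0.0582). Gzmk, a granzyme, went the other way: it read 4.97, 4.96 and 4.93 in wild type, 5.59, 5.57 and 5.75 under CD4-cre and 6.84, 5.68 and 6.36 under Foxp3-cre, a rise of 1.34 (SE 0.23, adjusted p = 0.0212). Its wild type signals all lie under 4.979, so Gzmk was tested through its knockout arrays. The receptors with the lowest values did not pass: Klra8 at -1.92 and Klra7 at -1.47 (adjusted p = 0.0937 and 0.0945), 2 members of a family of near-identical Ly49 genes whose probes may share signal. On the 3 Foxp3-cre arrays Klra8 read 3.96, 5.31 and 5.73 and in CD4-cre 5.28, 4.41 and 6.43, so the spread within each knockout is wide. Ncr1, a defining receptor of NK cells, stood at -0.22 (adjusted p = 0.345). The count of falls became 2 when wild type replicate 3 was left out, 1 or 2 for CD4-cre replicates 1 or 2, and 2 or 1 for Foxp3-cre replicates 1 or 2. Cd160 was called in all 9 fits.

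The GIMAP family, GTPases of lymphocyte survival whose genes lie in a cluster on chromosome 6, had 3 falls among its tested genes. Of 8 listed genes 5 were tested, and all 5 lay lower (48.9% of all genes did) with a median of -0.49. With all arrays 3 fell and without wild type replicate 2 5 fell, against 1.67% and 4.94% of all genes. Gimap7 read 10.14, 10.28 and 9.98 in wild type, 8.95, 9.01 and 9.19 under CD4-cre and 8.69, 9.16 and 9.19 under Foxp3-cre. Both knockouts lie below wild type and overlap each other. Gimap7 fell by 1.12 (SE 0.14, limma adjusted p = 0.00686), Gimap6 by 0.58 (SE 0.09, adjusted p = 0.0147) and Gimap3 by 0.49 (SE 0.09, adjusted p = 0.0258). Gimap1 and Gimap4 stood at -0.29 and -0.27 (adjusted p = 0.0829 and 0.182). CD4-cre stood at -1.09, -0.50 and -0.37 for Gimap7, Gimap6 and Gimap3 against the same wild type arrays.

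**Figure D3:**
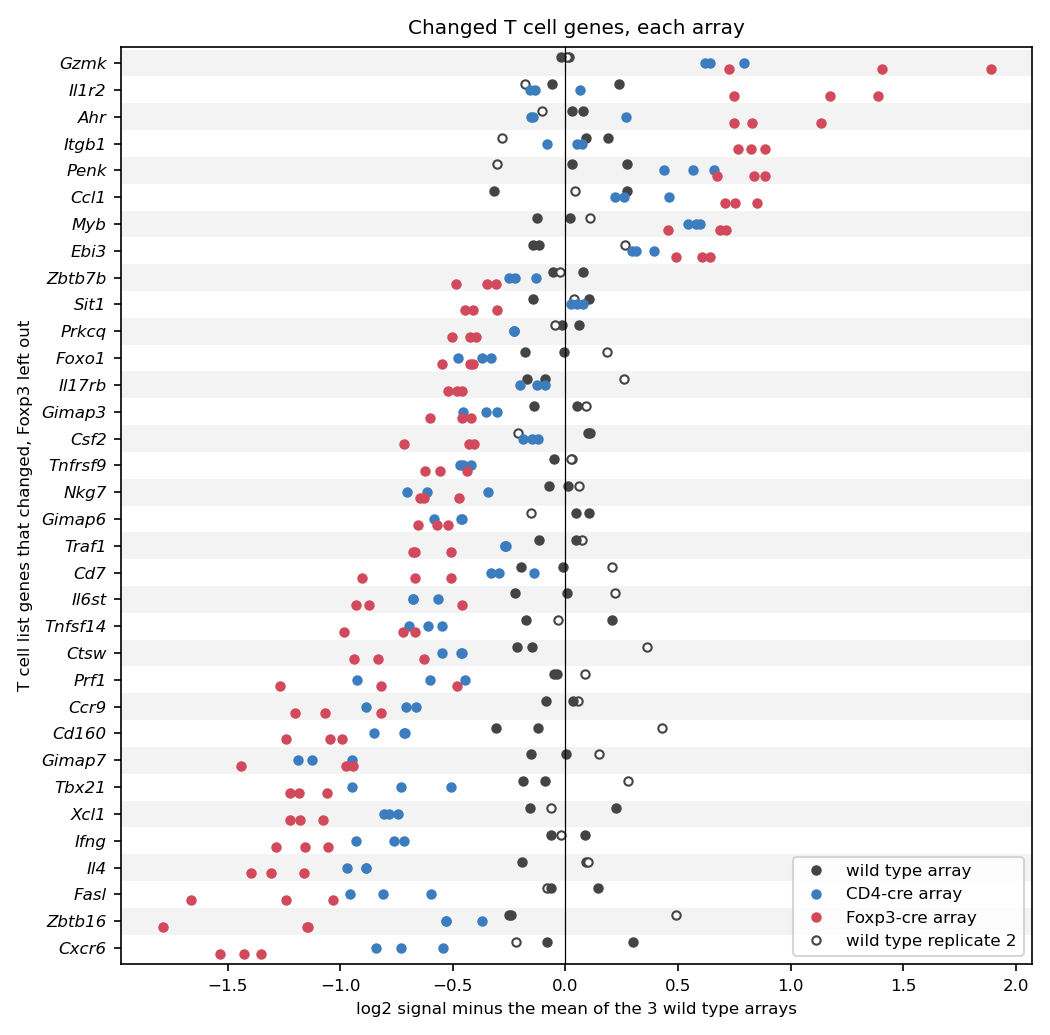
Log2 signal of the 34 changed T cell genes other than Foxp3 on each of the 9 arrays, minus the mean of the wild type arrays; wild type replicate 2 is the open point. The Foxp3-cre arrays lie to the left of all wild type arrays for the 26 genes that fell and to the right for the 8 that rose, and for Sit1, Itgb1, Ahr and Il1r2 the CD4-cre arrays lie near 0.

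The myeloid rises lie mostly in the neutrophil lists. The primary granule genes of neutrophils, which are made in bone marrow precursors, rose in 5 of 5 tested (8 listed, 6 in the table), against 1.69% of all genes, with a median of 1.33. Elane, neutrophil elastase, read 4.79, 4.59 and 4.91 in wild type, 5.34, 5.23 and 5.37 under CD4-cre and 5.93, 5.62 and 6.15 under Foxp3-cre. The 3 groups are in that order without overlap, and Elane rose by 1.14 (SE 0.14, limma adjusted p = 0.00597). Prtn3, proteinase 3, rose by 1.33 (SE 0.19, adjusted p = 0.0107), Ctsg, cathepsin G, by 1.05 (SE 0.19, adjusted p = 0.0242), Mpo, myeloperoxidase, by 1.81 (SE 0.35, adjusted p = 0.0289), and Serpinb1a, an inhibitor of these proteases, by 1.45 (SE 0.27, adjusted p = 0.0265). Mpo read 3.88, 5.49 and 5.16 in wild type and 6.96, 6.30 and 6.69 in Foxp3-cre. Wild type signals of these genes lie near the threshold for testing, so those of them that were tested passed it through the knockout arrays in part. The wild type signals of Elane and the wild type mean of Mpo, 4.84, lie under 4.979, the mean a gene needed to be tested. These 2 genes were tested through their knockout arrays. With no filter on dim genes 5 of 6 rose, against 95 of all 12393 genes, and with the filter at the 60th percentile 0 of the list were tested.

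The secondary granule and late neutrophil genes hold most of the largest rises, with 7 rises among 23 tested (33 listed, 25 in the table), against 1.69% of all genes, and a median of 1.16. Camp, the antimicrobial peptide cathelicidin, read 7.81, 8.60 and 9.18 in wild type, 9.42, 9.07 and 10.70 under CD4-cre and 10.28, 11.03 and 11.73 under Foxp3-cre. Foxp3-cre lies above wild type on every array, and CD4-cre overlaps both. Camp rose by 2.49 (SE 0.50, limma adjusted p = 0.0328), a 5.61-fold higher signal. Ngp, neutrophilic granule protein, rose by 2.43 (adjusted p = 0.0261), Chil3, a chitinase-like protein, by 2.55 (adjusted p = 0.0265) and Lcn2, which binds bacterial iron carriers, by 2.40 (adjusted p = 0.0289). Ltf, lactoferrin, and Ifitm6 stood at 2.35 and 2.21 (adjusted p = 0.0450 and 0.0465), and missed the threshold without wild type replicate 2 (adjusted p = 0.0600 and 0.0698) at nearly the same values, 2.33 and 1.91. S100a8, a chain of calprotectin, read 11.68, 11.93 and 12.44 in wild type and 12.46, 12.88 and 13.23 in Foxp3-cre. Its difference of 0.84 did not pass (adjusted p = 0.141) and passed with the replicate block (adjusted p = 0.0157). Surface proteins of this list went both ways. Cxcr2, the receptor of neutrophil chemokines, stood at 0.05 and Csf3r, the receptor of G-CSF, at -0.33 (adjusted p = 0.940 and 0.636). Clec4d and Clec4e stood at -0.59 and -0.07 (adjusted p = 0.409 and 0.942). Itgb2l rose by 1.92 (adjusted p = 0.0375). Cd177, Fpr2 and Trem3 stood at 2.19, 1.86 and 1.22 (adjusted p = 0.0527, 0.0955 and 0.183). Cd177, Fpr2 and Trem3 passed with the replicate block (adjusted p = 0.00136, 0.0108 and 0.0213).

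Monocyte and macrophage genes lay higher in 26 of 32 tested (51.1% of all genes did), with a median of 0.44, and 1 rose (1.69% of all genes did). C1qb, a chain of complement C1q, read 4.21, 4.15 and 4.02 in wild type, 4.48, 4.39 and 5.96 under CD4-cre and 5.50, 6.76 and 7.53 under Foxp3-cre. Replicate 3 is the highest array of each knockout. C1qb rose by 2.47 (SE 0.51, limma adjusted p = 0.0368), although another probe set above the threshold stood at 0.40. Its wild type and CD4-cre means, 4.13 and 4.94, lie under 4.979, so C1qb was tested through its Foxp3-cre arrays. Csf1r, the growth factor receptor of macrophages, stood at 0.84 (adjusted p = 0.354), Cd68, a lysosomal protein, at 0.85 (adjusted p = 0.203) and C1qa at 1.71 (adjusted p = 0.0994, and 0.0329 with the replicate block). The wild type mean of C1qa, 4.86, lies under 4.979 as well. Axl, a receptor of dying cells, stood at 0.97 (adjusted p = 0.0518), passed with the replicate block (adjusted p = 0.0228) and rose by 0.68 without wild type replicate 2 (adjusted p = 0.0294). Of 6 tested dendritic cell genes 0 changed, and Fscn1, an actin bundler of mature dendritic cells, stood at 1.22 (adjusted p = 0.132) with Foxp3-cre replicate 1 at 8.46 and the other probe set above the threshold at 0.25. Of 3 tested mast cell, basophil and eosinophil genes 1 rose: Prg2, the major basic protein of eosinophils, had a mean of 5.99 (SD 0.27) in wild type and 7.42 (SD 0.51) in Foxp3-cre with no overlap of arrays, a rise of 1.42 (SE 0.25, adjusted p = 0.0229).

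Single arrays decide much of the myeloid count. In place of 14 rises there were 5 when wild type replicate 3 was left out, 4 or 8 for CD4-cre replicates 1 or 2, and 5 or 3 for Foxp3-cre replicates 2 or 3. Elane and Prtn3 were called in all 9 such fits. With the replicate number as a block 215 of all 7436 tested genes rose and 139 fell. Among myeloid genes 27 rose and 1 fell in that fit, of which 13 rises and the fall were secondary granule genes and 8 rises were macrophage genes. The arrays of a group differ widely in these genes. The mean of the secondary granule list was 7.99, 8.57 and 9.26 on replicates 1, 2 and 3, against 7.28, 7.13 and 8.13 in wild type, and that of macrophage genes was 7.07, 7.63 and 8.20 against 6.93, 6.85 and 7.31. Replicate 3 is the highest array of its group in both lists in wild type and in Foxp3-cre, and Foxp3-cre replicate 1 lies within the wild type range. Primary granule genes instead read 6.40, 6.07 and 6.48 against 4.70, 5.11 and 5.07, with all Foxp3-cre arrays above wild type.

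B lineage genes were higher on some Foxp3-cre arrays only. The mean of 22 tested B cell genes was 7.80 and 8.02 on Foxp3-cre replicates 2 and 3, 6.80 on replicate 1, and 7.10, 7.28 and 6.88 in wild type. Ms4a1, which encodes CD20, read 8.27, 8.31 and 7.34 in wild type and 7.77, 9.62 and 9.72 in Foxp3-cre, a difference of 1.06 (SE 0.47, limma adjusted p = 0.231). Replicate 1 lies within the wild type range and the others above it. Cd79a and Cd79b, the signalling chains of the B cell receptor, stood at 0.57 and 0.54, with replicates 2 and 3 above every wild type array and replicate 1 below all of them. None of the 22 B cell genes passed, at a background of 3.36%. Without Foxp3-cre replicate 1, 13 of them rose, as did 134 of all 7436 tested genes. The factor Ebf1 read 3.91, 5.78 and 5.88 on the Foxp3-cre arrays and 3.92, 4.53 and 4.02 in wild type. It was too dim to be tested, as was Pax5, which stayed between 3.38 and 3.99 on all arrays. Of 5 plasma cell genes 0 changed: Jchain, the joining chain of secreted antibodies, was at 11.85, 12.00 and 11.87 in wild type and 10.79, 11.44 and 11.67 in Foxp3-cre (-0.60, adjusted p = 0.113). Ighm, the heavy chain of IgM, stood at -0.50 (adjusted p = 0.0740) while its other probe sets lay between -0.72 and 0.24. Genes of antigen presentation on MHC class II followed the B cell genes by array, with means of 7.61, 8.30 and 8.63 in Foxp3-cre against 7.94, 8.11 and 7.48 in wild type, and 0 of 8 passed. Erythroid, platelet, CD8 T cell and stromal lists had 0 changed among 4, 2, 3 and 1 tested genes. The part of these cells in the T cell changes was not tested.

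**Figure D4:**
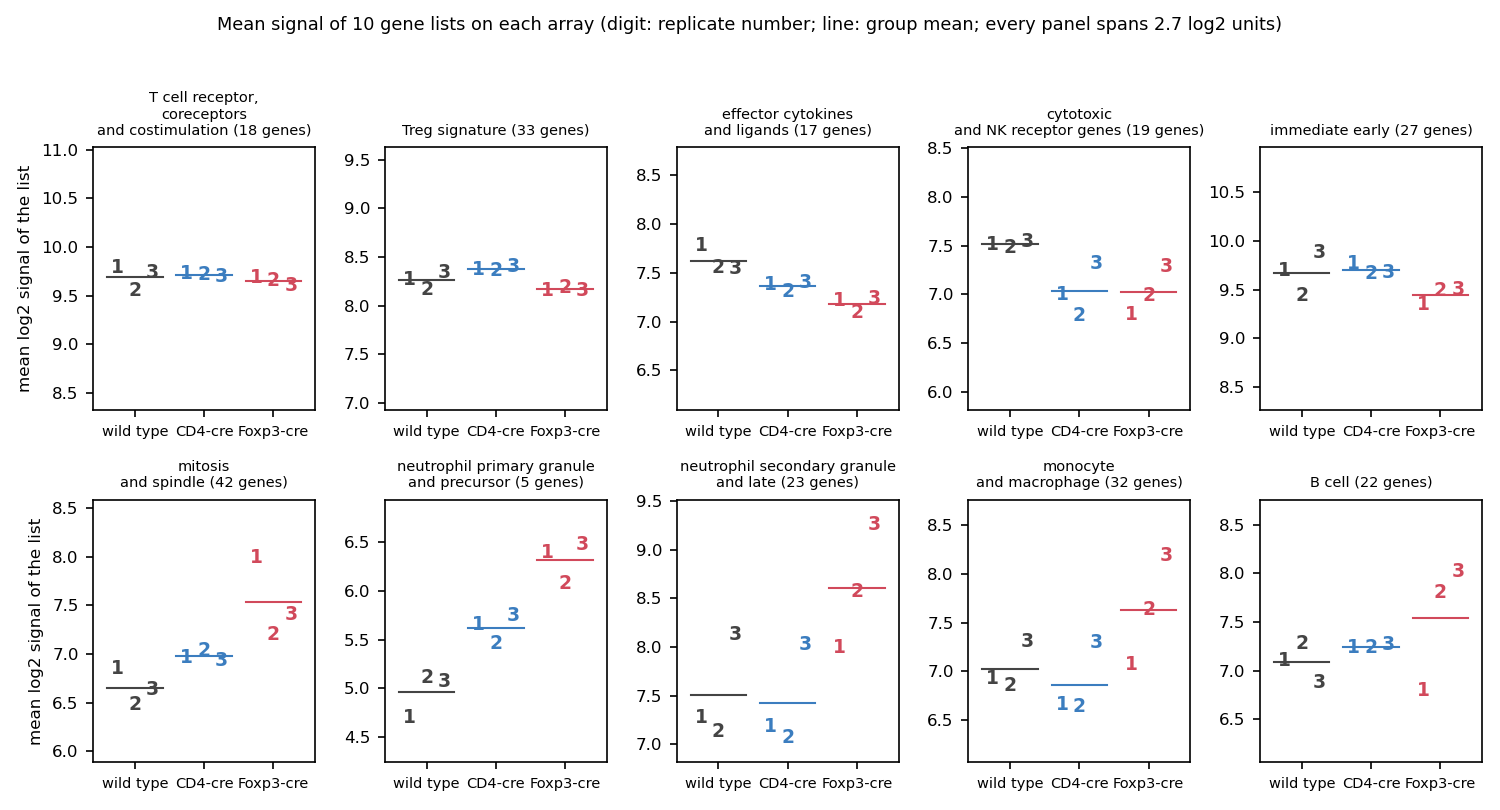
Mean log2 signal of 10 lists on each array, with the replicate number as the symbol and a line at the group mean. Secondary granule and macrophage genes are highest on Foxp3-cre replicate 3 and lowest on replicate 1 of that group, mitosis genes put replicate 1 on top, and the antigen receptor list stays between 9.56 and 9.79 on all arrays.

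Genes of mitosis make up most of the programme rises. Of 48 listed genes 42 were tested and 41 lay higher (51.1% of all genes did). For 39 of them all Foxp3-cre arrays lay above all wild type arrays, as for 11.1% of all genes. With all arrays 19 rose (1.69% of all genes did), with a median of 0.88. Without wild type replicate 2, 15 rose (2.69% of all genes did), with a median of 0.77. Kif11, the motor that pushes the spindle poles apart, read 6.01, 5.58 and 5.47 in wild type, 6.16, 6.15 and 6.14 under CD4-cre and 7.45, 6.55 and 6.87 under Foxp3-cre. Each Foxp3-cre array exceeds each wild type array, and replicate 1 is the highest. Kif11 rose by 1.27 (SE 0.21, limma adjusted p = 0.0196). Ube2c, the ubiquitin-conjugating enzyme of mitotic exit, read 8.32, 7.62 and 7.99 against 9.62, 8.85 and 9.19 and rose by 1.25 (SE 0.21, adjusted p = 0.0206). Ttk, the spindle checkpoint kinase, read 5.28, 4.05 and 4.74 against 6.51, 5.78 and 5.80 and rose by 1.34 (SE 0.29, adjusted p = 0.0412), which was 1.02 without wild type replicate 2. Its wild type mean, 4.69, lies under 4.979, so Ttk was tested through its knockout arrays. Cdca3, a trigger of mitotic entry, rose by 1.23 (adjusted p = 0.0129) and Nusap1, a spindle microtubule protein, by 1.23 (adjusted p = 0.0212). Mki67, the proliferation marker Ki-67, stood at 0.73 (adjusted p = 0.0914) and rose by 0.88 without wild type replicate 2 (adjusted p = 0.0439). Of 36 tested replication genes all 36 lay higher and 5 rose (51.1% and 1.69% of all genes did), with a median of 0.64. E2f8, a repressor of the E2F family, rose by 1.24 (adjusted p = 0.0258). Pola1, the catalytic subunit of polymerase alpha, rose by 1.05 (adjusted p = 0.0260), and Rrm2, Gmnn and Rrm1 by 0.83, 0.80 and 0.79.

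Foxp3-cre replicate 1 had the highest mean of the mitosis list, and replicate 3 read 7.41. The wild type arrays read 6.85, 6.48 and 6.63 and the CD4-cre arrays 6.96, 7.04 and 6.93, all below every Foxp3-cre array. Replicate 1 has the lowest secondary granule, macrophage and B cell means of its group. Which cells carry the mitosis signal was not tested. The 19 mitosis rises became 1 when wild type replicate 3 was left out, 7, 7 or 9 for CD4-cre replicates 1, 2 or 3, and 3 for Foxp3-cre replicate 3. The 5 replication rises became 11 for wild type replicate 1, 0 for replicate 3, 0, 0 or 2 for CD4-cre replicates 1, 2 or 3, and 0 for Foxp3-cre replicate 3. Cdca3 was called in all 9 fits, Kif11, Ube2c and Nusap1 in 7, E2f8 in 5, Pola1 in 4 and Ttk in 2. With the replicate number as a block 32 mitosis and 14 replication genes rose, and 215 of all 7436 tested genes did. In the promoter windows, 16 of the 20 windows of 18 changed mitosis genes (80%) hold both cell cycle motifs, against 7.52% of all 32851 RefSeq windows of the same length and 67.5% of the windows of all mitosis genes in the table. The windows of Ttk, Kif11 and Ube2c above each hold TTTGAA within 29 bases of the start, at 8, -19 and -29. A match is a description of the letters and not a binding site.

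Asns, asparagine synthetase, had the largest rise of all 7436 genes. It read 4.78, 4.55 and 4.43 in wild type, 7.46, 7.50 and 6.99 under CD4-cre and 7.39, 7.35 and 7.64 under Foxp3-cre. The knockouts overlap each other and lie far above wild type. Asns rose by 2.87 (SE 0.15, limma adjusted p = 3.58e-05) and by 2.85 without wild type replicate 2, and another probe set stood at 2.54. Its wild type signals all lie under 4.979, the mean a gene needed to be tested, so Asns was tested through its knockout arrays, and no fold is given. Of 29 tested genes of amino acid stress and tRNA charging 1 rose, Asns, and 1 fell, Atf4, the transcription factor that drives the response, with a median of 0.02 (1.69% of all genes rose and 1.67% fell). Atf4 read 10.64, 10.60 and 10.68 in wild type and 10.22, 10.30 and 10.33 in Foxp3-cre and fell by 0.35 (SE 0.07, adjusted p = 0.0358), with adjusted p = 0.0549 when the replicate number is a block. Psat1, an enzyme of serine synthesis, stood at 0.59 (adjusted p = 0.0854, and 0.0471 with the replicate block), Trib3, a target of ATF4, at -0.16 and Ddit3, the stress factor CHOP, at -0.47 (adjusted p = 0.0719). Ddit3 fell by 0.32 without wild type replicate 2 (adjusted p = 0.0389), and the list then had 3 falls. With the replicate block it had 2 rises and 0 falls. The Asns window shown above holds TGATGNAAN once, as TGATGAAAC starting at -23. The motif is in 12 of 31 windows of 28 other genes of the list (38.7%) and in 3.95% of all windows.

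Immediate early genes, which respond to stimulation within minutes, lay lower in 22 of 27 tested (48.9% of all genes did), with a median of -0.27, and 4 fell (1.67% of all genes did). Maff, a small MAF factor, read 6.08, 6.42 and 6.58 in wild type and 5.57, 5.58 and 5.73 in Foxp3-cre and fell by 0.73 (SE 0.13, limma adjusted p = 0.0211). Ppp1r15a, a phosphatase subunit of the stress response, fell by 0.71 (adjusted p = 0.0425), Klf4, a brake on T cell proliferation, by 0.57 (adjusted p = 0.0280) and Klf6 by 0.46 (adjusted p = 0.0211). The AP-1 subunits depended on wild type replicate 2. Jun read 11.59, 10.83 and 11.63 in wild type and 10.69, 10.86 and 10.82 in Foxp3-cre, so the array that stands apart is the only wild type array inside the Foxp3-cre range. It stood at -0.56 (adjusted p = 0.138) and fell by 0.82 without that array (adjusted p = 0.00324). Junb and Fos fell by 0.61 and 0.47 without it (adjusted p = 0.00652 and 0.0115) and stood at -0.44 and -0.24 with it. CD4-cre stood at -0.06 for Jun, -0.05 for Junb and 0.18 for Fos. The count of 4 became 9 when wild type replicate 2 was left out, 0 for replicate 3, 2 for CD4-cre replicate 1 or 2, and 2, 1 or 2 for Foxp3-cre replicates 1, 2 or 3.

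Of 31 tested interferon response genes 2 fell (1.67% of all genes did), with a median of -0.13. For the rise among acetylation enzymes below, the share over all genes is 1.69%. Oasl1, an antiviral protein, read 6.02, 6.08 and 6.10 in wild type and 5.34, 5.08 and 5.42 in Foxp3-cre and fell by 0.78 (SE 0.13, limma adjusted p = 0.0163), and Parp14, an ADP-ribosyltransferase, fell by 0.45 (adjusted p = 0.0290). Without wild type replicate 3 neither passed, and without wild type replicate 2 there were 4 falls (4.94% of all genes fell). Of 15 tested sirtuins and acetylation enzymes 1 rose: Hdac1, a class I deacetylase, read 8.96, 8.82 and 8.94 in wild type, 9.41, 9.35 and 9.29 under CD4-cre and 9.37, 9.31 and 9.23 under Foxp3-cre, a rise of 0.39 (SE 0.08, adjusted p = 0.0306), which was called in 2 of the 9 fits that leave out 1 array. When that fit omits wild type replicate 2, Hdac6, a deacetylase of tubulin, rose by 0.30 (adjusted p = 0.0410), and Sirt7, a nucleolar sirtuin, fell by 0.30 (adjusted p = 0.0261) alongside Sirt1. With all arrays Sirt2 stood at 0.15, Sirt3 at 0.13 and Sirt7 at -0.18 (adjusted p = 0.278, 0.491 and 0.344).

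Among the changed genes in no list, the largest rises split between genes known from myeloid cells, genes of cell division and others. Anxa3, an annexin that neutrophils and macrophages express, read 4.58, 4.53 and 5.20 in wild type and 6.18, 6.18 and 6.96 in Foxp3-cre and rose by 1.67 (SE 0.33, limma adjusted p = 0.0328), and Fcna, a ficolin, rose by 1.44 (adjusted p = 0.0428). The wild type and CD4-cre means of Anxa3, 4.77 and 4.93, lie under 4.979, so Anxa3 was tested through its Foxp3-cre arrays. Cep55, of the last step of cell division, Ncapg2, a condensin subunit, and Fignl1, of DNA repair, rose by 1.42, 1.24 and 1.23, with Foxp3-cre replicate 1 highest for each (7.79, 8.10 and 7.84). Cap1, a regulator of actin turnover, read 9.65, 9.33 and 9.73 in wild type, 10.77, 10.74 and 10.59 under CD4-cre and 10.75, 10.92 and 10.97 under Foxp3-cre. Both knockouts are above every wild type array, and Cap1 rose by 1.31 (SE 0.12, adjusted p = 0.00106). Mtmr9, a myotubularin-related protein, rose by 1.49 (SE 0.29, adjusted p = 0.0311), and its other probe sets stood at 1.83 and 2.02. Among the falls, Ncmap, a myelin protein, had a mean of 7.10 (SD 0.10) in wild type and read 5.85, 5.23 and 4.64 in Foxp3-cre, and fell by 1.85 (SE 0.37, adjusted p = 0.0328). Sfn, the 14-3-3 protein sigma, fell by 1.34 (SE 0.17, adjusted p = 0.00776), Rell1, a TNF receptor homologue, by 1.32 (adjusted p = 0.0159), Aqp9, a channel of water and glycerol, by 1.29 (SE 0.14, adjusted p = 0.00328), and Gpc1, a glypican, by 1.25 (adjusted p = 0.0148). Cap1, Sfn, Aqp9 and Gpc1 were called in all 9 fits that leave out 1 array, Rell1 in 8, Mtmr9 in 5, Anxa3 in 4, Ncmap and Fcna in 3 and Ncapg2 in 2. CD4-cre stood at 1.13 for Cap1, -1.29 for Sfn and -1.29 for Gpc1 against the same wild type arrays, and at 0.16 for Anxa3. Omitting wild type replicate 2 adds Abca1, the cholesterol exporter, and Ifitm1, an antiviral membrane protein, which fell by 0.94 and 1.09 (adjusted p = 0.00123 and 0.0496), and Cdca5, which holds sister chromatids together and rose by 0.94 (adjusted p = 0.0316). With all arrays they stood at -0.69, -0.82 and 0.80 (adjusted p = 0.0755, 0.152 and 0.0566), and Ifitm1 passed with the replicate block (adjusted p = 0.0306).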

How the data were processed

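Per the submitters' processing notes the values were made with RMA, and the authors deposited them as log2 signals per probe set. RMA corrects background, normalizes between arrays, compresses dim differences and removes changes common to all genes. The RMA version and a genome build for the array were not given in any source used here. Probe sets with exactly 1 gene symbol were kept (20380 of 22690, named through the platform annotation and a RefSeq table of GRCm38.p6), and the set with the highest mean stood for its gene. Genes at or above the 40th percentile of gene means (4.979 on the log2 scale) entered the tests, 7436 of 12393. All 9 arrays were fitted in limma 3.58.1 under R 4.3.3 (lmFit and eBayes, no trend, not robust), two-sided, with Benjamini-Hochberg adjustment over all tested genes and a threshold of 0.05. All adjusted p are limma's, and 6 residual degrees of freedom with 3.37 prior ones set the precision. With 3 arrays a group the smallest exact permutation p is 0.1, so no such test was run. The members and lists were chosen with earlier results of these data known. Named genes are the 15 largest rises and 15 largest falls outside the myeloid, B lineage and other cell lists among changed genes whose groups do not overlap, the 10 largest each way of all such genes, Sirt1, Foxp3, Il2ra, Cd4, Ctla4 and Tnfrsf18, up to 5 changed members per list or the 2 largest where none changed, up to 8 genes called only with or only without wild type replicate 2, and markers. Genes named beyond that (Jun, Junb, Fos, Ccl1, Csf2, Ccl4, Tnf, Ltb, Zbtb7b, Gata3, Eomes, Itgae, Tnfrsf4, Fgl2, Ppp1r3f, Syp, Clcn5, Satb1, Lef1, S1pr1, Klra7, Klra8, Gimap1, Gimap4, Cxcr2, Csf3r, Cd177, Fpr2, Trem3, Clec4d, Clec4e, Axl, Psat1, Trib3, Ddit3, Hdac6, Sirt2, Sirt3, Sirt7, Nnt, Pink1, Kif1b, Dnajb1, Lpin1 and Pdk1) were chosen after their values were seen. The replicate numbers are those of the titles. Deviations of same-numbered wild type and Foxp3-cre arrays from their group means correlated at 0.25, 0.20 and 0.25, each over 0.1, so the numbers were taken to pair these arrays. The fit was tested on simulated data with known changes. Alternatives were other filters, the mean of all probe sets of a gene, limma with trend and robust, array weights, arrays shifted to the same median, the 2 groups alone, the replicate block and leaving out each array.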

Additional observations from a re-analysis of the deposited data

Results flagged for a closer look

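The change of Foxp3 against wild type differed between the knockouts. Foxp3-cre minus CD4-cre was -6.70 (limma adjusted p = 1.48e-07), and the CD4-cre arrays stood at 0.27 against the same wild type arrays (adjusted p = 0.529). All 3 Foxp3-cre arrays lie below all CD4-cre arrays. The Foxp3-cre side of this difference is at low signal, so no fold follows from it. The labels do not say where in Foxp3 the probes lie.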

How the results depend on the processing

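Against the 250 changed genes (126 risen, 124 fallen), fitting only the wild type and Foxp3-cre arrays left 16 (2 risen, 14 fallen), all among the 250, and array weights gave 1539 (650 risen, 889 fallen). The filter at the 60th percentile left 81 risen genes. The replicate block gave 215 risen genes, and of 82 called genes named by rule it lost 1, Atf4, besides Zbtb7b. S100a8, S100a9, C1qa, Axl, Cd177, Fpr2, Trem3, Ccl3, Ccl4, Klrk1, Itgae, Psat1, Ccdc22 and Ifitm1 passed with it. Leaving out each array in turn gave 71 to 567 changed genes, 31 to 227 risen and 40 to 367 fallen. Wild type replicate 2 gave 567, and Foxp3-cre replicate 3 gave 71. Between the knockouts the count of 1 became 55 with only their arrays in the fit, 96 with the replicate block, 812 with array weights, 2 with arrays shifted to the same median, and 1 to 72 when leaving out each array. Same-numbered arrays of the knockouts do not all deviate together (correlations of 0.19, -0.03 and 0.49), so the block is no pairing there. The difference of Sirt1 reversed from 0.03 to -0.35 without wild type replicate 2 and to -0.35 with array weights (adjusted p = 0.0301 and 0.0380), lay at -0.01 with arrays shifted to the same median, and ranged from -0.35 to 0.22 when each array was left out. Those 82 genes kept their direction under every alternative in which they were tested. All kept their call with arrays shifted to the same median and with array weights, 16 lost it with no filter on dim genes, and 71 lost it with the 2 groups alone, where the spread is estimated from 6 arrays in place of 9. The cause of the other differences was not tested. With 3 arrays a group, of which 1 wild type array stands apart, changes of dim genes and of low size are the least certain.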

Other observations

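The changed genes were unevenly spread over chromosomes. On chromosome 4, 29 of 466 tested genes changed (6.22%, against 3.36% of all genes), 16 up and 13 down. Without wild type replicate 2, 13.5% of them changed, against 7.63% of all genes. With all arrays chromosome 13 had 5.62%, and the other autosomes and X lay between 1.77% and 4.32%. The genes on chromosome 4 belong to several classes, such as Penk, Sit1, Klf4, C1qb and Tnfrsf9, and also hold Cap1, Hdac1, Sfn, Ncmap, Pink1 and Kif1b. This is a description with no test.

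Nnt, the proton-pumping transhydrogenase of mitochondria that carries a deletion in the C57BL/6J substrain, was looked up after its value was seen. It read 6.99, 6.06 and 6.93 in wild type, between 7.14 and 7.21 under CD4-cre and 7.63, 7.80 and 7.88 under Foxp3-cre, so the 3 groups are in that order without overlap. Nnt rose by 1.11 (SE 0.21, limma adjusted p = 0.0277) and by 0.81 without wild type replicate 2 (adjusted p = 0.00262). The labels give no substrain.

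Pink1, Dnajb1, Lpin1 and Pdk1 are in no list and were chosen after their values were seen. Pink1, a kinase of mitochondrial quality control, read 8.58, 8.65 and 8.53 in wild type, 7.86, 7.75 and 7.70 under CD4-cre and 7.53, 7.62 and 7.61 under Foxp3-cre. Its fall of 1.01 (SE 0.08, limma adjusted p = 0.00051) leaves no overlap between any of the 3 groups. Dnajb1, a heat shock cochaperone, fell by 0.99 (SE 0.11, adjusted p = 0.00375), and Lpin1, a phosphatase of lipid synthesis, by 0.91 (SE 0.15, adjusted p = 0.0202). Pdk1, a kinase that restrains pyruvate oxidation, read 8.39, 8.16 and 8.60 in wild type and 7.75, 7.86 and 7.76 in Foxp3-cre and fell by 0.59 (SE 0.11, adjusted p = 0.0242), while CD4-cre stood at 0.11.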
